A study of Saccharomyces cerevisiae with 2 samples.

Results

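A set of 6 messenger RNAs of Saccharomyces cerevisiae was examined for contacts with the DEAD-box RNA helicase Dbp2p: those of the helicases DED1, DBP1, DHH1, SUB2 and DBP5 and that of YRA1, whose protein is a partner of Dbp2p. They were chosen by systematic name and are 6 of the 4336 gene names listed in the data. The assay was iCLIP: UV irradiation crosslinks proteins to bound RNA, and because reverse transcription stops at the crosslink, cDNA ends mark the contacted nucleotides. The samples form 1 group of 2 replicates, called replicate 1 and replicate 2, from whole cells of strain BTY140. It is labelled MATa, carries the alleles his3Δ1, leu2Δ0, met15Δ0 and ura3Δ0, and expresses Dbp2p with a histidine-biotin tag (DBP2-HTBH:kanMX6) that served for the affinity pull-down. Cells grew at 30 °C in YPD to an OD600 of about 1.0 and were irradiated before harvest. No untagged or input library and no RNA abundance was analysed here, so contacts were not set against a background or against the amount of each mRNA. The labels do not describe the cultures behind the replicates, so each SD measures only the spread between these 2 samples.

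DEAD-box proteins use ATP to open short RNA duplexes or to clamp onto RNA, and several of them accompany an mRNA from the gene to the ribosome. Sub2p works with Yra1p in the TREX complex, which packages new transcripts for export, and Dbp5p strips export factors from the mRNA at the cytoplasmic face of the nuclear pore. Ded1p and its paralog Dbp1p act in translation initiation, where the small ribosomal subunit scans the leader of the mRNA, and Dhh1p represses translation and promotes removal of the cap. YRA1 carries an intron that takes part in the control of its own expression. All 6 members are described here as RNAs that Dbp2p touched, not as proteins.

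Each replicate has a list of nucleotide positions, with a gene name and the fraction of the gene's signal found there. The fractions of a gene sum to 1, so a percentage below is a share of 1 gene's signal. The number of reads behind it is unknown, and levels are compared only as numbers of listed positions. For DED1 and SUB2 all shares in replicate 1 were 16.7% or 33.3%, and for YRA1 all were 25%. Shares in such steps can come from counts as low as 1 or 2 per position, which was not tested. Replicate 1 holds 8666 positions and replicate 2 holds 18088. In the check of the strain label, LEU2, MET17 (the gene of met15Δ0) and URA3 had 0 positions in both replicates, while HIS3 had 0 and 4. The MATa genes STE2, STE6 and BAR1 were listed in both replicates, MFA1 and MFA2 in neither, and of 3 MATalpha genes only STE3 was listed, with 6 and 11 positions. STE3 therefore had more positions than any of the 5 MATa genes, at most 1 in replicate 1 and 2 in replicate 2. Listed in both replicates were 3 of 5 MATa genes, 1 of 3 MATalpha genes and 37.4% of all protein-coding genes. Gene length and expression were not matched, so these counts do not settle the MATa label. HIS3 was listed although the label gives a deletion allele, and the labels do not say how much of the gene that allele lacks. The cause of either count was not tested.

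The strongest contact regions of the members in replicate 2 are printed as the listed bases, 5′ to 3′ in the sense of the mRNA, because the results on position turn on them. The capital is the position with the largest share of the gene's signal in the region, and n stands for a nucleotide that is not listed. Coordinates are those of sacCer3, 1-based, and only the bases given in the deposited data are shown.
DED1, chrXV:723933-723938, forward strand: Anntac
DBP1, chrXVI:324501-324509, reverse strand: Annaatnnt
DHH1, chrIV:171476-171481, reverse strand: Tnntac
SUB2, chrIV:306444-306453, forward strand: angnTnnnnc
YRA1, chrIV:1236720-1236725, forward strand: Agnaaa
DBP5, chrXV:414478-414483, reverse strand: Anntna
DBP5, chrXV:415275-415279, reverse strand: Angtg

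All 6 mRNAs were listed in both replicates. As background, replicate 1 listed 45% of the 6002 nuclear protein-coding genes in the annotation, replicate 2 listed 63.2%, and 37.4% had a position in each. The members were chosen with earlier results of these data known, so their listing is not independent of that choice. At least 2 positions in each replicate were found in 4 members and in 16.6% of the genes, and a reading frame position in each in 5 members and 30.2%. They held 18 positions in replicate 1 and 47 in replicate 2, a mean of 32.5 ± 20.5 (SD, n = 2). DED1 had 5 and 12 positions, DBP5 2 and 14, SUB2 5 and 5, YRA1 4 and 5, DBP1 1 and 7, and DHH1 1 and 4. Replicate 2 listed more positions in 5 of the 6, against 61.9% of the 2243 protein-coding genes listed in both replicates, and SUB2 had the same number in each (22.7% of those genes). Their standing among all protein-coding genes varied. For DED1, 96% of genes had fewer positions in replicate 1 and 96.3% in replicate 2. For DHH1 these shares were 55% and 76.8%, and for DBP5 77.2% and 97.6%. SUB2 stood above 96% and 82.2%, YRA1 above 93.3% and 82.2%, and DBP1 above 55% and 89.8%.

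**Figure D1:**
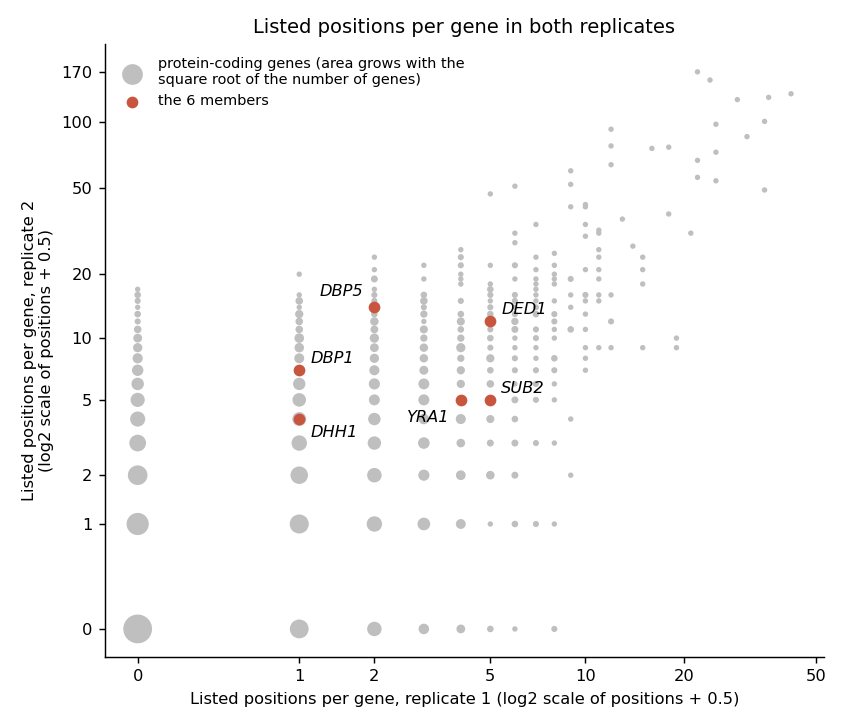
Listed positions per protein-coding gene in replicate 1 (horizontal axis) and replicate 2 (vertical axis), both on a log2 scale of positions + 0.5, with the 6 members in red and all genes in grey. DED1 lies at 5 and 12 positions and DBP5 at 2 and 14, while DHH1 and DBP1 share the value of 1 position in replicate 1.

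Per kilobase of annotated span, DBP5 had 5.52 ± 5.86 positions (SD, n = 2 for each member), DED1 4.68 ± 2.73, SUB2 3.73 ± 0, YRA1 3.11 ± 0.489, DBP1 2.16 ± 2.29 and DHH1 1.64 ± 1.39. These values count every listed position, also those outside the span. In replicate 1 those outside were the only position of DHH1, 2 of DED1 and 1 of SUB2, and in replicate 2 1 of DBP5. Values from inside the span alone were not computed, so the SD of 0 for SUB2 holds for this count only. By this count and in that order, the replicate values of each member overlapped those of its neighbour. The exception was SUB2, with 3.73 in both, and YRA1, with 2.76 and 3.46. The order itself was not the same in the replicates, since SUB2 led in replicate 1 with 3.73 and DBP5 in replicate 2 with 9.66. Pooled over all protein-coding genes replicate 1 had 0.709 and replicate 2 had 1.86 positions per kilobase. DBP1, with 0.539, and DHH1, with 0.657, were below that value in replicate 1, and all 6 were above it in replicate 2.

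No nucleotide of any member was listed in both replicates. Of the protein-coding genes listed in both, 4.77% had such a nucleotide, and 11.2% had positions of the replicates within 5 nt of each other, which also held for 0 of the 6 members. The closest pair between the replicates lay 26 nt apart in DED1, 36 nt in SUB2, 68 nt in DBP5, 84 nt in YRA1, 247 nt in DBP1 and 618 nt in DHH1, compared with a median of 136 nt over the 2243 genes.

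**Figure D2:**
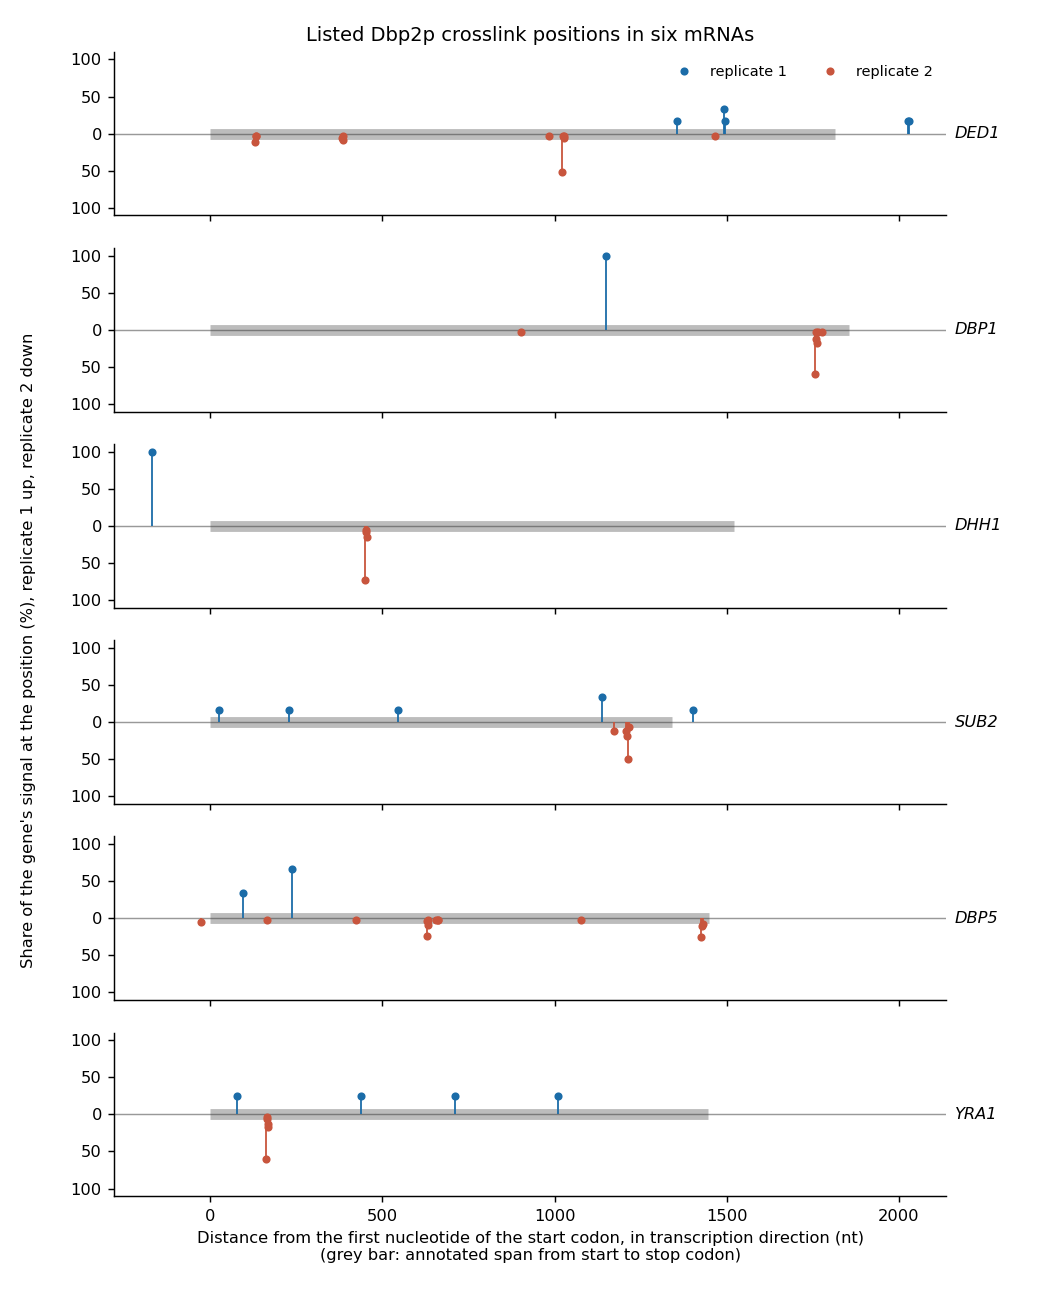
Share of each gene's signal at every listed position (vertical axis, %, replicate 1 upward and replicate 2 downward) against the distance from the first nucleotide of the start codon (horizontal axis, nt), with the annotated span as a grey bar. No stem of replicate 1 meets one of replicate 2, and the 4 stems outside a grey bar in replicate 1 belong to DED1, SUB2 and DHH1.

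DED1, the scanning helicase of translation initiation (YOR204W, chromosome XV, 722911 to 724725, forward strand), was contacted at separate places in the replicates. In replicate 1, nucleotide 1493 of the reading frame, in codon 498, held 33.3% of the signal. Nucleotides 1356 and 1495 held 16.7% each, as did 2 positions past the stop codon at 210 and 213 nt from it. In replicate 2, nucleotide 1023, the last base of codon 341, held 51.4%, and its region from 1023 to 1028 held 62.2%. The regions of replicate 2 at nucleotides 130 to 134 and 383 to 386, held 16.2% each, and the single positions 983 and 1467 held 2.70% each. All 12 positions of replicate 2 lay inside the reading frame, and 3 of 5 did in replicate 1. The replicates came closest at nucleotides 1493 and 1467, which carried the highest share in the first and a lowest one in the second.

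No position under the DED1 name lay upstream of its start codon. The gene before it on the same strand is HIS3, which ends 302 nt before DED1 and is named as the allele his3Δ1 in the strain. Of the 4 HIS3 positions of replicate 2, nucleotides 338 and 378 lay inside the HIS3 frame with 20% of its signal each. Those 69 and 79 nt past its stop codon, with 40% and 20%, are 234 and 224 nt before the DED1 start. The rule by which a position between both genes was given a name is not stated in the sources used here.

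DBP1, the paralog of DED1 (YPL119C, chromosome XVI, 324411 to 326264, reverse strand), had a single position in replicate 1, nucleotide 1150 in codon 384, which therefore held 100% of its signal. In replicate 2, 95% of the signal lay in the region from 1756 to 1764, close to the end of the reading frame of 1854 nt. Its first nucleotide, the first base of codon 586, held 60%. The positions 903 and 1777 held 2.50% each. The strongest nucleotides of the replicates were 606 nt apart, and no position lay outside the reading frame. How reads that could belong to either paralog were placed is not given in the sources used here, so the assignment between DED1 and DBP1 is uncertain.

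DHH1, the helicase of translational repression and decapping (YDL160C, chromosome IV, 170410 to 171930, reverse strand), was the least listed member by mean. Its single position in replicate 1 lay 169 nt before the start codon, at coordinate 172099, and was a T. The next gene in that direction, YDL159W-A, is on the other strand and begins 251 nt from the DHH1 frame. In replicate 2 all 4 positions lay in a stretch of 6 nt inside the reading frame, nucleotides 450 to 455, where nucleotide 450 in codon 150 held 72.5% of the signal and nucleotide 455 held 15%. The position of replicate 1 was thus upstream of the frame and those of replicate 2 inside it. Whether the upstream nucleotide belongs to the DHH1 transcript was not tested.

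SUB2, the helicase of the TREX complex (YDL084W, chromosome IV, 305237 to 306577, forward strand), had 5 positions in each replicate, spread in one and bunched in the other. In replicate 1 they stood alone at nucleotides 25, 229, 547 and 1138 of the reading frame and 61 nt past the stop codon. Nucleotide 1138 in codon 380 held 33.3% and the others 16.7% each. In replicate 2 nucleotide 1212, the last base of codon 404, held 50%, its region from 1208 to 1217 held 87.5% and nucleotide 1174 held the remaining 12.5%. The strongest nucleotides lay 74 nt apart, the smallest such distance among the 5 members that have a single strongest nucleotide in each replicate. In DED1 this distance was 470 nt, in DBP1 606, in DHH1 618 and in DBP5 1187.

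YRA1, the RNA-binding export adaptor (YDR381W, chromosome IV, 1236558 to 1238004, forward strand), is the one member whose annotated span of 1447 nt is no multiple of 3, since the span includes the intron. In replicate 1 its 4 positions, nucleotides 79, 437, 712 and 1009 of the span, held 25% each and so gave no strongest place. In replicate 2 the entire signal lay in nucleotides 163 to 168, with 60% at the first of them, 16.7% at the last and 13.3% at 167. Replicate 1 thus reached to 69.7% of the span and replicate 2 to 11.6%. The borders of the intron were not used here, so these positions were not divided into exon and intron. None lay outside the span in either replicate. SUB2 and DED1, like DHH1, DBP1 and DBP5, have spans that are multiples of 3.

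DBP5, the helicase of the nuclear pore (YOR046C, chromosome XV, 414459 to 415907, reverse strand), had 2 and 14 positions. This was the members' largest difference between the replicates in number, but in proportion it was no larger than that of DBP1 (1 and 7). In replicate 1 DBP5 had nucleotide 238 in codon 80 with 66.7% and nucleotide 96 with 33.3%, both in the first part of the frame. In replicate 2 its 14 positions ran from 26 nt before the start codon, with 5.56%, to nucleotide 1430, near the stop codon of the 1449 nt frame. The region from 1425 to 1430 held 44.4% and that from 629 to 633 held 38.9%. The strongest nucleotides of these regions, 1425 with 25.9% and 629 with 24.1%, were close in share, so DBP5 had no single dominant place in replicate 2. Nucleotides 164, 424 and 1076 and each of the 3 positions from 657 to 662 held 1.85%.

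Most positions of the members lay inside the reading frame, as they did in protein-coding genes in general. The frame here is the annotated span with any intron, so it is not the coding sequence alone. All YRA1 positions therefore counted as inside it, whether in exon or intron. In replicate 1, 14 of 18 did, 77.8%, with 1 upstream and 3 downstream, and over all protein-coding genes the share was 75.3%. In replicate 2, 46 of 47 did, 97.9%, with 1 upstream and 0 downstream, compared with 84.4%. The mean was 87.8% ± 14.2 (SD, n = 2). A position outside the frame was found in 3 of the 6 members in replicate 1, where 34.5% of listed genes had one, and in 1 of 6 in replicate 2, against 29.5%. With the fractions as weights, 75% and 99.1% of the signal lay inside the frame.

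The base at the members' positions was A at 30 of 65, T at 18, G at 11 and C at 6. A made up 44.4% in replicate 1 and 46.8% in replicate 2, and over all protein-coding genes 49% and 39.5%. C was at 0 of 18 positions in replicate 1 and 12.8% in replicate 2, with 7.61% and 14.9% over all genes.

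In replicate 2 the members' positions gathered in short regions. When positions no more than 5 nt apart were joined into a cluster, 38 of 47 positions lay in 10 clusters of at least 2 positions, a share of 80.9%. Each of the 6 members had such a cluster, against 36.7% of genes listed in replicate 2. The members had 4 to 14 positions there, while the median of listed genes was 2, and a gene with 1 position cannot have a cluster. The shares over all genes in this paragraph were not matched for number of positions. In replicate 1, 4 of 18 positions lay in 2 clusters, both in DED1, and 12.6% of listed genes had one. Over all protein-coding genes 16.7% of positions were in clusters in replicate 1 and 53.8% in replicate 2. Counted once per cluster, DBP5 had 2 and 7 places, DED1 3 and 5, SUB2 5 and 2, YRA1 4 and 1, DBP1 1 and 3 and DHH1 1 and 1. The higher position number of replicate 2 in YRA1 and DHH1, and the equal one in SUB2, were thus not kept when clusters were counted once.

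The clusters had a common shape. In 7 of the 10 clusters of replicate 2 the strongest position was the most 5′ one, in 2 it lay inside the cluster (DED1 at 383 to 386 and SUB2) and in 1 the positions tied. In 5 of those 7, in DED1, DBP1, DHH1 and DBP5, the next listed position was 3 nt downstream with no listed nucleotide between, as in the printed regions that begin with a capital and nn. This shape was general in replicate 2: in 72.4% of 2459 clusters of protein-coding genes the strongest was the most 5′, and in 57.7% of these the next position was 3 nt away. In replicate 1 the strongest was the most 5′ in 34.2% of 398 clusters, of which 201 were tied, against 406 tied of 2459 in replicate 2. Among clusters without a tie the shares were 69% of 197 in replicate 1 and 86.7% of 2053 in replicate 2. Where the most 5′ position led in replicate 1, the next position was 3 nt away in 14.7% of clusters and 1 nt away in 55.9%. The part of this spacing in the members' position numbers and in the lack of shared nucleotides was not tested.

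**Figure D3:**
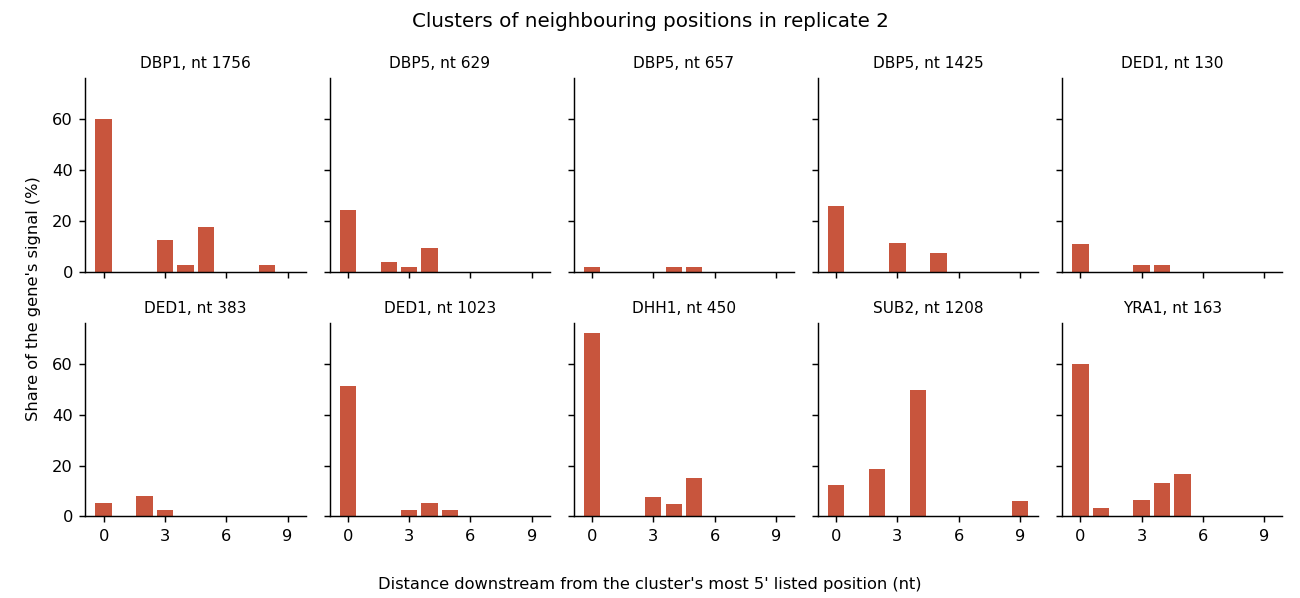
The 10 clusters of the members in replicate 2, each headed by its gene and the nucleotide of the reading frame at which it begins, with the share of the gene's signal (vertical axis, %) against the distance from the cluster's most 5′ position (horizontal axis, nt). The bar at 0 is the tallest in 7 clusters, and in 5 of these the next bar stands at 3 nt.

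The share at the strongest nucleotide was set beside that of genes with like numbers of positions. In replicate 1 it was 33.3% in DED1 and SUB2 and 25% in YRA1. The median of 239 genes with 4 to 5 positions was 25% (quartiles 25% and 42.9%). With 4 positions, YRA1 could not have a share below 25%. In replicate 2 it was 72.5% in DHH1, 60% in DBP1 and YRA1 and 50% in SUB2, and the median over 900 genes with 4 to 7 positions was 48.9% (quartiles 25% and 63.2%). DED1 with 51.4% stood above and DBP5 with 25.9% below the quartiles of 94 genes with 12 to 14 positions, 28.2% and 43.9%.

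The genes around these 6 in export, translation and decay were counted in the same way. Of 18 other genes of TREX and nuclear mRNA export, replicate 1 listed 10 and replicate 2 listed 12, with 8 in both and medians of 1 and 1.5 positions. The most listed were NAB2 (4 and 9 positions), NPL3 (1 and 12) and NUP159 (4 and 7), which encode a poly(A)-binding protein, a shuttling mRNA-binding protein and the nucleoporin that holds Dbp5p. The THO subunit THO2 had 2 and 7 positions and MFT1 0 and 1, while HPR1, THP2 and TEX1 had 0 in both. YRA2, the relative of YRA1, had 0 and 1. Of 18 partners of Dhh1p and Ded1p in decay and translation, 11 were listed in both, with medians of 1 and 3, led by CDC39 (4 and 22), NGR1 (7 and 7) and SBP1 (3 and 8). CDC39 encodes the scaffold of the Ccr4-Not complex. Of 21 other DEAD-box helicases 13 were listed in both, with medians of 1 and 5, and TIF2 (5 and 17), DBP2 itself (10 and 9) and TIF1 (5 and 10) came first. The 6 members had medians of 3 and 6, and over all protein-coding genes the medians were 0 and 1. Listed in both were 44.4% of the export list, 61.1% of the decay and translation list and 61.9% of the helicases. Over all protein-coding genes, replicate 1 listed 45%, replicate 2 63.2% and both 37.4%. Gene length and expression were not matched in these counts. How reads that could belong to both TIF1 and TIF2 were placed is not given in the sources used here.

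**Figure D4:**
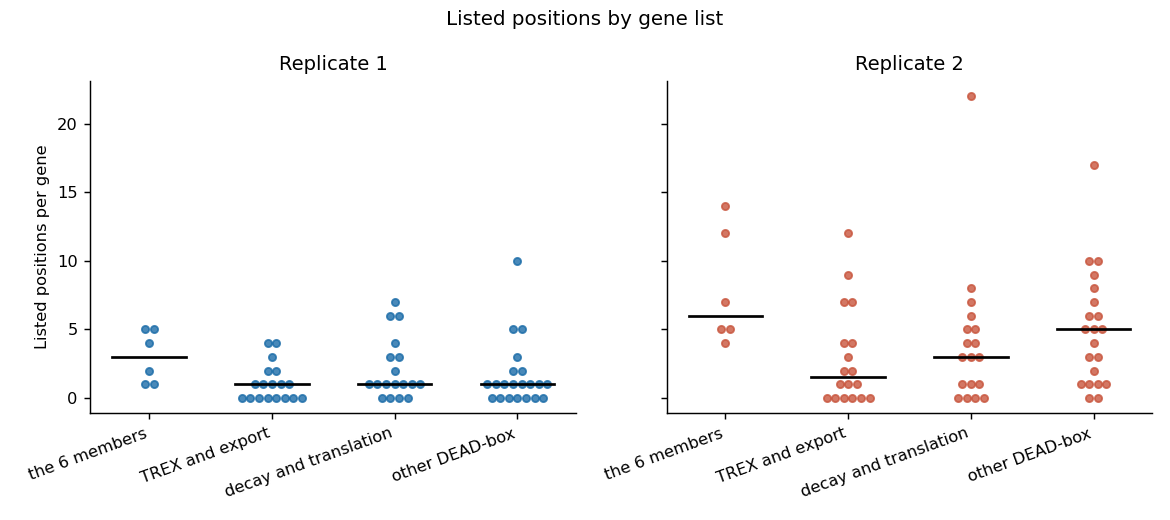
Listed positions per gene (vertical axis) in replicate 1 (left) and replicate 2 (right) for the 6 members and 3 lists of related genes, 1 point per gene with the median as a black line. The members range from 1 to 5 positions in replicate 1 and from 4 to 14 in replicate 2, and each of the other lists has genes at 0 in both panels.

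The pattern of DED1, the member with the most positions by mean (8.5 against 8 for DBP5, which led in replicate 2, while SUB2 had as many in replicate 1), was shared exactly by 4 other protein-coding genes with 5 and 12 positions. RPL11B and HYP2 were among them, with a distance of 0 in log2(positions + 0.5) over the 2 replicates.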

How the data were processed

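Per the file headers, each replicate's table gives the nucleotide, its strand and base, the gene name and a column of normalized counts. Tested on the tables, the authors' deposited value is a fraction of the gene's signal: it sums to 1, within 1e-06, under all 2787 names of replicate 1 and 3873 of replicate 2. Per the submitters' processing notes, CASAVA, TopHat and the build sacCer3 were used; no version is given. Collapsing of repeated cDNAs, filters and multi-mapping reads are not given in the sources used here, and depth is unknown, so no interval is given.

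Of 4336 names, 4252 matched the R64 annotation by systematic name and 81 by symbol, and 3 were left out. Listed bases matched ATG at 58 of 58 start-codon positions and were allowed at 60 of 60 stop-codon positions, on both strands. The reading frame is the annotated span, with any intron. Introns, untranslated regions and the genome sequence were not used here.

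Positions were counted per gene and replicate with Python 3.11.15, numpy 2.4.6, pandas 2.3.3 and matplotlib 3.10.9, and clustering and coordinate arithmetic were tested on simulated data. With 1 group there was no comparison between conditions and no test; percentages over all protein-coding genes stand beside the members' counts. The text names the members, the 3 most listed genes of each of 3 lists and, of the 3 genes nearest DED1 in pattern, all but 1, which is not reported here. THO2, MFT1, HPR1, THP2, TEX1, YRA2 and STE3 were named after their values were seen. The members and lists were chosen with earlier results of these data known, and the measures of cluster shape after the values were seen.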

Additional observations from a re-analysis of the deposited data

How the results depend on the processing

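The 6 members held a mean of 32.5 positions, which became 17.5 with positions within 5 nt counted once and also 17.5 without the lowest fraction of each gene. With the reading frame alone it was 30, and with 1 replicate left out it ranged from 18 to 47. The share of positions inside the frame, 87.8%, was 87.0% weighted by fraction and 88.0% with positions within 5 nt counted once. Both lay within its spread between replicates, from 77.8% to 97.9%. Leaving out a replicate gives the ends of that spread, so that setting could not move the share out of it. The number of shared nucleotides stayed at 0 when 5 nt between positions were allowed. It could only be 0 in the reading frame alone and without the lowest fractions, which remove positions. All 6 members were listed in both replicates, 4 with at least 2 positions in each and 5 with a reading frame position in each. With clusters counted once or the reading frame alone, 9 of 12 position numbers of single members stayed within the spread between replicates, and ranked per kilobase 5 of 6 ranks did. The exception was DED1, which moved from a mean rank of 203 to 441.75. The strongest nucleotide differed between the replicates in all 5 members that have one in each; the cause was not tested. No paired analysis was possible because there is 1 group. The number of reads behind a fraction is unknown, so a single listed position cannot be weighed against another gene's.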
